A study of Homo sapiens with 24 samples.

Results

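The plastins, also called fimbrins, are actin-bundling proteins: a tandem repeat of actin-binding domains lets each molecule hold neighbouring filaments together, and calcium-binding EF-hand motifs at the amino end regulate this. LCP1 (L-plastin) is the plastin of leukocytes and is also made by many tumour cells, PLS1 (I-plastin) bundles the actin cores of microvilli in intestine and of stereocilia in the inner ear, and PLS3 (T-plastin) is the form of most solid tissues. The genes were taken by symbol from the tables of counts, which gave 3 of 19692 entries. LCP1 was chosen because it showed the largest well-measured gain in the line overexpressing ZC3H7B, so its difference between the lines is described without a test; PLS1 and PLS3 were taken as its paralogs.

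The libraries come from HEK293, an established human embryonic kidney line, by catabolic SLAM-seq, in which 4-thiouridine (s4U) built into new RNA is later read as T>C conversions. Reads with such conversions are called labelled. By their labels both lines carried a Flag/HA construct. One is the control line, and the other overexpressed ZC3H7B, a CCCH zinc finger RNA-binding protein (ZC3H7B-OE). Both lines received 100 µM s4U and 1 µg/mL doxycycline for 24 h, then 10 mM uridine, and poly(A) RNA was taken at 0, 2, 4 and 6 h of this chase from 3 libraries a line and time, 24 in all. The labels do not say whether either line is a clone or a pool. With a single line of each kind, what ZC3H7B does and any other difference between the lines cannot be told apart.

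Depth moved with chase time: the 0 and 2 h libraries held 1502068 to 2053311 reads and the 4 and 6 h libraries 2480380 to 3676254. Labelled reads made up 74.3% to 78.0% of a 0 h library, 70.8% to 77.2% of a 2 h library, 45.1% to 48.6% of a 4 h library and 28.95% to 30.6% of a 6 h library. ZC3H7B itself stood at 269 ± 74.0 CPM (counts scaled to a common library size with TMM factors; SD, n = 12) in control and 328 ± 75.02 in ZC3H7B-OE, a log2 difference of 0.28 (SE 0.08, adjusted p = 0.00347 by edgeR's quasi-likelihood test). Whether reads of the construct are counted here is not known, so this value does not measure how strongly the line overexpresses ZC3H7B. Control 0 h replicate 3 stood apart from the rest, with a scaling factor of 0.726 against 0.926 to 1.08 and correlations with the other libraries of its group that averaged 0.912, against 0.939 to 0.980 elsewhere. It also held the highest control 0 h value of LCP1 and of PLS1, so the main differences of the plastins that rest on 0 h are given with and without it, and those of other genes with it. HEK293 markers were present only in part: INA, a neuronal intermediate filament gene, stood at 124 ± 20.1 CPM in control, while VIM, the vimentin gene, which HEK293 is known to express, stood at 3.57 ± 2.99 CPM. The region over which reads were counted is not given in the sources used here, so a low count is reported as a low count and not as absent mRNA.

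The regions around the annotated starts of the 3 genes are shown because the members of this family behaved so differently in the same libraries. They are RefSeq windows from 250 bases before to 50 bases after a gene's start, on GRCh38.p14, while the deposited counts were made on GRCh37. Capitals mark matches on either strand to the TATA box, spelled TATAAA, the GC box, spelled GGGCGG, the CCAAT box, spelled by its name, or an ETS-type motif spelled AGGAAGT that was added after the LCP1 window had been seen; none of these motifs contains another. The LCP1 window is chr13:46182128-46182427 on the minus strand, the PLS1 window chr3:142596143-142596442 on the plus strand (the first of 3 listed) and the PLS3 window chrX:115560924-115561223 on the plus strand (the first of 2 listed).
LCP1: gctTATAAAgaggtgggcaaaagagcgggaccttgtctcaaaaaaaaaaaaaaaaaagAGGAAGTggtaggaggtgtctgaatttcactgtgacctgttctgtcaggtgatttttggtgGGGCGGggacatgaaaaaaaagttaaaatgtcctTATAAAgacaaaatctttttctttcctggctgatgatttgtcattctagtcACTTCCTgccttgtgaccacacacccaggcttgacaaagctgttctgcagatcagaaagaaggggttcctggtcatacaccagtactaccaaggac
PLS1: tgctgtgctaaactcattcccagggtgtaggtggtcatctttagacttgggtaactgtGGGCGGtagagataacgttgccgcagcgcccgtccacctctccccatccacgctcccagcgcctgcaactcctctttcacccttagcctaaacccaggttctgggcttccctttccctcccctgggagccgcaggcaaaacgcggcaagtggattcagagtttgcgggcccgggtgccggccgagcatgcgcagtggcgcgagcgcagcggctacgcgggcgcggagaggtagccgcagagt
PLS3: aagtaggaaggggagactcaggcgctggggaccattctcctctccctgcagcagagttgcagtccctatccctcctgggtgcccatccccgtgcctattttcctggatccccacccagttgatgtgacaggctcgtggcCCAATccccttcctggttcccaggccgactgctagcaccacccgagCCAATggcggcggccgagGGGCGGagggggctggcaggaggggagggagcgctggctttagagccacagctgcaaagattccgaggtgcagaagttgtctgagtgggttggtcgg
The LCP1 window held TATAAA in 2 places, AGGAAGT in 2 and GGGCGG in 1, with 2 CpG dinucleotides and 42.7% G or C. The PLS1 window held GGGCGG in 1 place, with 24 CpG and 63.0% G or C, and the PLS3 window held CCAAT in 2 places and GGGCGG in 1, with 12 CpG and 63.3% G or C. Among 34943 RefSeq windows of this length the median was 14 CpG and 58.7% G or C; TATAAA was in 11.6%, GGGCGG in 44.9%, CCAAT in 34.7% and AGGAAGT in 8.23%. The LCP1 window was thus poorer in CpG than its paralogs' windows and the only one of the 3 with TATAAA. These libraries do not measure binding or promoter activity, and a match is a match of letters.

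LCP1 was low in every control library and high in every ZC3H7B-OE library. The control libraries held 10.8, 6.50 and 28.4 CPM (0 h), 12.2, 11.85 and 7.53 CPM (2 h), 15.1, 12.0 and 9.51 CPM (4 h), and 5.41, 6.28 and 7.42 CPM (6 h). The ZC3H7B-OE libraries held 279, 253 and 269 CPM (0 h), 207, 219.5 and 199.9 CPM (2 h), 218.5, 187 and 205 CPM (4 h), and 166, 187 and 213 CPM (6 h). The highest control library, the one that stood apart, lay well below the lowest ZC3H7B-OE library, and the groups overlapped at no time. This contrast, the one LCP1 was chosen on, called 45.8% of all entries tested.

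The control values rest on 289 LCP1 reads in 12 libraries and the ZC3H7B-OE values on 6160. From pooled reads scaled by depth, the ratio of ZC3H7B-OE to control was 20.4 in the 0 h libraries (exact 95% interval of the counts 15.9 to 26.5), 19.7 after 2 h of chase, 16.5 after 4 h and 29.1 after 6 h (22.5 to 38.3). The fitted log2 difference over the 4 times was 4.37 (SE 0.13), and at 0 h it was 4.28, or 4.93 without control 0 h replicate 3. These values chose LCP1 and are a description. In the same ranking AMOT, which encodes the junction protein angiomotin, came next at 2.25, followed by VPS9D1 at 1.32 and FAM207A at 1.22, while the median over 10038 entries tested was 0.0072.

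**Figure D1:**
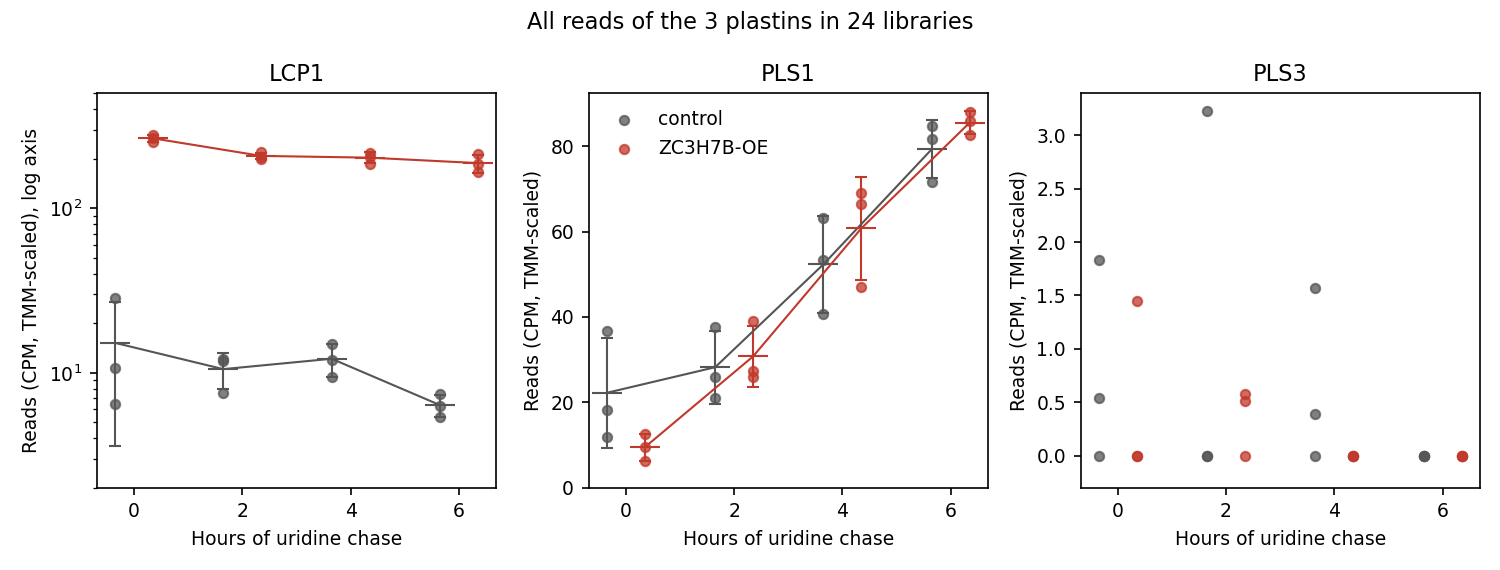
All reads of LCP1 (log axis), PLS1 and PLS3 in CPM against hours of chase; points are libraries, and horizontal ticks with bars are group means ± SD (n = 3; not drawn for PLS3, which is at 0 in most libraries). LCP1 is separated by line at every time, PLS1 rises along the chase in both lines, and PLS3 reaches at most 3.23 CPM.

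PLS1, the paralog with enough reads to test, did not follow LCP1. Its control libraries held 18.1, 11.9 and 36.7 CPM (0 h), 25.99, 37.7 and 20.99 CPM (2 h), 63.1, 40.6 and 53.2 CPM (4 h), and 84.6, 81.7 and 71.6 CPM (6 h). Its ZC3H7B-OE libraries held 9.46, 6.28 and 12.7 CPM (0 h), 39.03, 27.3 and 25.9 CPM (2 h), 68.97, 46.97 and 66.3 CPM (4 h), and 82.6, 88.0 and 85.8 CPM (6 h). The lines overlapped at every time, and what moved PLS1 most was the time of chase.

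Over the 4 times PLS1 differed between lines by -0.18 on the log2 scale (SE 0.14, adjusted p = 0.314 by edgeR), in the contrast that called 45.8% of all entries. At 0 h it was lower in ZC3H7B-OE by edgeR, at -1.16 (SE 0.35, adjusted p = 0.0113), where 19.5% of entries were called lower. The call did not survive leaving out control 0 h replicate 3 (-0.69, adjusted p = 0.147) or ZC3H7B-OE 0 h replicate 2 (-0.91, adjusted p = 0.0749), or fitting the 6 libraries of 0 h alone (-1.16, adjusted p = 0.127). At 2, 4 and 6 h the PLS1 differences were 0.12, 0.21 and 0.11, with adjusted p of 0.866, 0.608 and 0.800 by edgeR.

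PLS3 was barely counted. It drew 20 reads in all, 15 in control and 5 in ZC3H7B-OE, spread over 8 of 24 libraries, and it did not pass the filter on low counts, so 2 of the 3 plastins were tested. Control 2 h replicate 3 held the most, 6 reads or 3.23 CPM. In 16 libraries PLS3 was at 0, including all 6 h libraries of both lines and the 4 h libraries of ZC3H7B-OE; with 3 reads as the floor, a 0 in these 16 libraries allows up to between 0.846 and 1.77 CPM depending on the library. The pooled ratio of ZC3H7B-OE to control was 0.324 with an exact 95% interval of 0.0921 to 0.938, which covers counting error only, and 6 of the 15 control reads came from 1 library.

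Levels of different genes were set side by side as CPM per kilobase of annotated 3' UTR (GENCODE models of 1671, 1652 and 1300 bases for LCP1, PLS1 and PLS3). At 0 h in ZC3H7B-OE, LCP1 stood at 160 ± 8.04 CPM per kilobase (SD, n = 3) and PLS1 at 5.74 ± 1.95. At 6 h in the same line they stood at 113 ± 14.1 and 51.8 ± 1.64. In control the order was the opposite, with LCP1 at 3.81 ± 0.601 and PLS1 at 47.99 ± 4.13 at 6 h. At 0 h in control they stood at 9.12 ± 6.96 and 13.5 ± 7.80. The spread between libraries was wide there, but within every control library of every time PLS1 stood above LCP1. PLS3 was lowest throughout, at most 0.828 ± 1.43 CPM per kilobase. LCP1 was thus the plastin with the most reads per length in ZC3H7B-OE and PLS1 the one in control.

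Along the chase LCP1 and PLS1 moved in opposite directions. LCP1 was lower at 6 h than at 0 h in control, with a log2 difference of -1.09 (SE 0.33, adjusted p = 0.00505), and in ZC3H7B-OE, with -0.50 (SE 0.20, adjusted p = 0.0265), both by edgeR. The tests called 29.9% and 30.6% of entries lower in these contrasts. Neither call held in every fit. Without control 0 h replicate 3 the control value was -0.43 (adjusted p = 0.255), and with DESeq2 size factors the ZC3H7B-OE value was -0.46 (adjusted p = 0.0539). The ZC3H7B-OE call was also lost when any of 4 libraries was left out: 0 h replicate 1 (-0.47) or 3 (-0.49), or 6 h replicate 1 (-0.42) or 2 (-0.50). With control 0 h replicate 3 left out the ZC3H7B-OE call held, at -0.50 (adjusted p = 0.000493 by edgeR).

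PLS1 was higher at 6 h than at 0 h in control by 1.92 on the log2 scale (SE 0.28, adjusted p = 4.82e-07) and in ZC3H7B-OE by 3.18 (SE 0.31, adjusted p = 8.27e-11), by edgeR. That is a rise of 3.78 times in control and 9.09 times in ZC3H7B-OE, and all 3 libraries at 6 h exceeded all 3 at 0 h in each line. Entries called higher made up 30.7% and 32.8% of those tested, and 88.7% of entries in control and 96.1% in ZC3H7B-OE had a smaller log2 difference than PLS1. The values without control 0 h replicate 3 were 2.40 in control and 3.19 in ZC3H7B-OE, and both calls held with each of the 24 libraries left out. Depth and chase time moved together, as given above, and the part of depth in these differences was not tested.

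Whether the lines changed differently along the chase was tested as an interaction. For PLS1 the line difference at 6 h exceeded that at 0 h by 1.27 on the log2 scale (SE 0.42, adjusted p = 0.1 by edgeR, where 2.52% of entries were called). It passed the threshold with DESeq2 (1.34, adjusted p = 0.0316), without a filter on low counts (1.31, adjusted p = 0.0205) and without control 0 h replicate 2 (1.56, adjusted p = 0.0212). The library that stood apart bore on it: with control 0 h replicate 3 left out the value was 0.79 (adjusted p = 0.362). For LCP1 the interaction was 0.59 (SE 0.38, adjusted p = 0.444 by edgeR), and -0.08 without control 0 h replicate 3. An F test of all times gave adjusted p of 0.441 for LCP1 and 0.176 for PLS1 by edgeR, with 1.73% of entries called, and 0.0416 for PLS1 with DESeq2.

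Labelled and unlabelled reads show what the totals are made of. In ZC3H7B-OE, labelled LCP1 fell from 202 ± 18.7 CPM (SD, n = 3) to 162 ± 4.91, 102 ± 17.5 and 64.6 ± 11.4 CPM over the 4 times. Unlabelled LCP1 went from 65.4 ± 5.40 to 47.0 ± 6.95, 102 ± 14.3 and 124 ± 12.3 CPM over the 4 times. In ZC3H7B-OE the 6 h libraries thus held less labelled and more unlabelled LCP1 than the 0 h libraries, with no overlap in either. Whole libraries of this line took the same course, with a mean labelled share of 74.8% at 0 h and 29.65% at 6 h. Labelled reads were called falling along the chase for 72.7% of entries in this line. How many other entries showed no overlap was not counted. In control, labelled LCP1 went from 10.5 ± 6.99 to 1.67 ± 0.618 CPM between 0 and 6 h, and unlabelled LCP1 was 4.72 ± 4.67 and 4.70 ± 0.847. The control 0 h libraries held 2.45, 1.63 and 10.1 CPM of unlabelled LCP1, the last in replicate 3, which stood apart. The control 6 h libraries held 3.72, 5.24 and 5.13 CPM. With replicate 3 left aside, unlabelled LCP1 in control was thus also higher at 6 h than at 0 h, on few reads.

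Labelled PLS1 showed no such fall between 0 and 6 h. In control it stood at 22.1 ± 13.1, 24.2 ± 8.69, 27.8 ± 10.7 and 25.6 ± 2.33 CPM over the 4 times. In ZC3H7B-OE it stood at 8.20 ± 2.61 at 0 h and then at 25.5 ± 4.86, 25.6 ± 3.30 and 21.2 ± 1.72. In ZC3H7B-OE all 3 libraries at 2 h thus held more labelled PLS1 than all 3 at 0 h, and the labelled reads made up most of the rise between those times. The 0 h libraries of this line held only 15, 11 and 18 labelled PLS1 reads. From 2 h on the rise of PLS1 lay in the unlabelled reads, which over the 4 times went from 0.181 ± 0.313 to 4.04 ± 0.473, 24.6 ± 5.28 and 53.7 ± 4.57 CPM in control and from 1.29 ± 0.904 to 5.31 ± 2.75, 35.1 ± 8.72 and 64.3 ± 1.42 in ZC3H7B-OE. Labelled PLS1 at 0 h ran from 11.4 to 36.7 CPM in control libraries and from 5.31 to 10.4 in ZC3H7B-OE, and unlabelled PLS1 at 6 h from 48.5 to 56.8 and from 62.7 to 65.4. How many other entries were separated in these ways, by time or by line, was not counted.

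**Figure D2:**
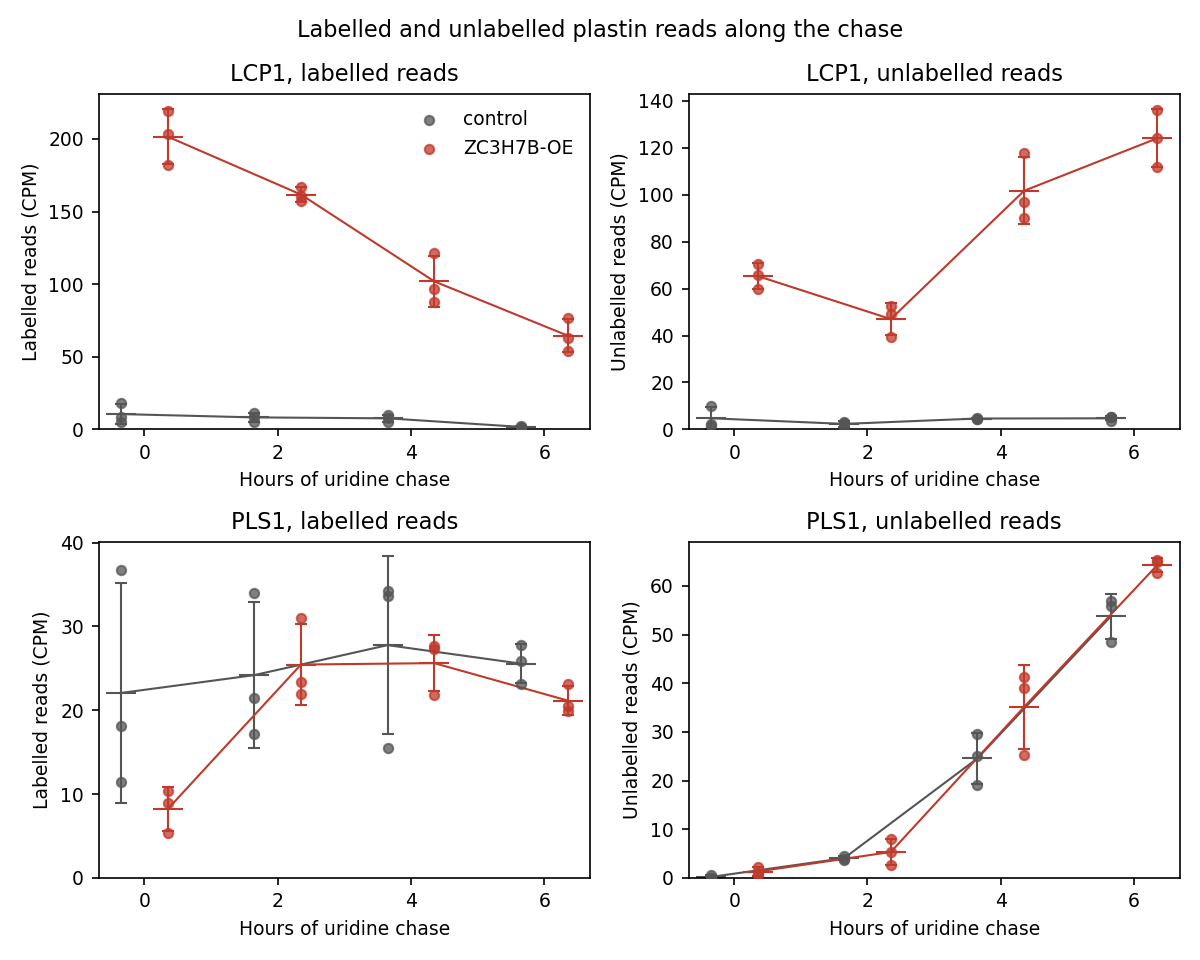
Labelled and unlabelled reads of LCP1 (top) and PLS1 (bottom) in CPM against hours of chase, with a vertical scale of its own in each panel; points are libraries and ticks with bars are means ± SD (n = 3). Labelled LCP1 falls in ZC3H7B-OE while its unlabelled reads rise after 2 h, and labelled PLS1 stays near 25 CPM from 2 h on while its unlabelled reads climb to 53.7 in control and 64.3 in ZC3H7B-OE.

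A slope of labelled reads over chase hours, scaled by all reads, was fitted in each line. The LCP1 slope was -0.32 log2 per h in control (SE 0.08, adjusted p = 0.000285; -0.26 without control 0 h replicate 3) and -0.28 in ZC3H7B-OE (SE 0.05, adjusted p = 1.14e-05), by edgeR, where 75.6% and 72.7% of 8490 entries were called falling. These slopes correspond to half-lives of 3.13 and 3.57 h, against medians of 3.84 and 4.14 h over all entries, and describe loss relative to all reads, with dilution included. Scaled to labelled reads alone, the slopes were -0.08 (adjusted p = 0.406) and -0.04 (adjusted p = 0.466), so a loss of LCP1 faster than that of labelled reads as a whole was not detected. The slopes of the 2 lines differed by 0.04 (SE 0.09, adjusted p = 0.999). Across all entries edgeR called 0 such differences, which is 0.0%, and 477 had an unadjusted p under 0.05; no other tool was run on the slopes.

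The PLS1 slope in control was 0.05 log2 per h (SE 0.07, adjusted p = 0.505), and 0.11 without control 0 h replicate 3 (adjusted p = 0.144). In ZC3H7B-OE it was 0.17 (SE 0.07, adjusted p = 0.0345 by edgeR), where 2.12% of entries tested were called rising. This rise rested on the 0 h libraries: fitted from 2 h to 6 h the slope was -0.08 (adjusted p = 0.270), and leaving out any 0 h library of ZC3H7B-OE (0.13, 0.11 and 0.14 without replicate 1, 2 and 3) ended the call. Scaled to labelled reads alone, the control slope was 0.30 (adjusted p = 7.11e-05). The difference between lines was 0.12 (SE 0.10, adjusted p = 0.984), and -0.08 from 2 h to 6 h.

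The labelled share of LCP1 reads was lower at 6 h than at 0 h in both lines, as in whole libraries. In control it was 72.3% ± 6.80 (SD, n = 3), 76.2% ± 14.0, 61.1% ± 7.92 and 26.2% ± 8.28 over the 4 times. In ZC3H7B-OE it was 75.4% ± 3.26, 77.5% ± 2.49, 50% ± 6.66 and 34.1% ± 1.75. All 3 control libraries at 4 h, with 52.0% to 66.7%, lay above every whole library of their group. The same held for all 3 ZC3H7B-OE libraries at 2 h, with 76.1% to 80.4%, and at 6 h, with 32.6% to 36.0%. How many other entries did so was not counted. Control libraries held only 12 to 48 LCP1 reads each, and a single share there has an exact 95% interval as wide as 42.8% to 94.5% (control 0 h replicate 2). From 0 to 6 h the log2 odds of a labelled read changed by -2.71 in control (SE 0.60, adjusted p = 3.08e-05, or -3.11 without control 0 h replicate 3) and by -2.57 in ZC3H7B-OE (SE 0.23, adjusted p = 1.23e-18), by edgeR, where 81.6% and 79.5% of entries were called. The medians over all entries were -4.05 and -3.86, and the LCP1 change did not differ detectably between lines (0.14, SE 0.53, adjusted p = 0.994, with 2.07% called).

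PLS1 began the chase almost fully labelled in control. In control its share was 100%, 95.5% and 100% in the 0 h libraries (98 of 99 reads; exact 95% interval 94.5% to 100.0%), above every whole library at that time. Its later control shares were 84.8% ± 4.51, 51.9% ± 13.2 and 32.2% ± 0.591 (SD, n = 3). The ZC3H7B-OE shares over the 4 times were 86.7% ± 6.24, 83.3% ± 5.97, 42.6% ± 3.36 and 24.7% ± 1.34. At 0 h in this line 44 of 51 reads were labelled (exact 95% interval 73.7% to 94.3%). From 0 to 6 h the log2 odds changed by -7.32 in control (SE 0.71, adjusted p = 5.99e-17) and by -4.21 in ZC3H7B-OE (SE 0.59, adjusted p = 2.97e-10), by edgeR. The control value leans on the single unlabelled read at 0 h and was -6.66 without control 0 h replicate 3. The change did not differ detectably between lines (3.11, SE 1.29, adjusted p = 0.245 by edgeR, with 2.07% of entries called).

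The PLS1 share was lower in ZC3H7B-OE at 4 of 4 times, with differences of -11.8, -1.47, -9.25 and -7.49 percentage points. Whole libraries of ZC3H7B-OE also had a lower mean share, by differences of -1.95, -3.93, -2.18 and -0.289 percentage points, so at 2 h PLS1 differed by less than the libraries did. The test that follows compares the PLS1 shares as they stand, without taking the libraries' difference off. Over all times the mean difference was -7.49 points (two-sided exact permutation test within times, p = 0.00569; 0.0284 after adjustment over 5 tests). At single times the exact permutation p was 0.1, 0.6, 0.4 and 0.1, and 3 against 3 cannot go below 0.1. At 0 and 6 h the shares of the lines did not overlap; the edgeR test of label described next called 0.956% and 6.53% of entries at those times. In the edgeR fit of labelled against unlabelled reads the line difference was -1.25 log2 (SE 0.36, adjusted p = 0.0106), against a median of -0.13 over all entries and 9.6% of entries called lower. Without ZC3H7B-OE 0 h replicate 3 it was -1.15 (adjusted p = 0.0807), and without control 0 h replicate 3 it was -1.09 (adjusted p = 0.0399). At single times the edgeR differences were -3.64, -0.25, -0.58 and -0.53 with adjusted p of 0.184, 0.892, 0.487 and 0.449. This edgeR test called 0.956% of entries at 0 h and 6.53% at 6 h.

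**Figure D3:**
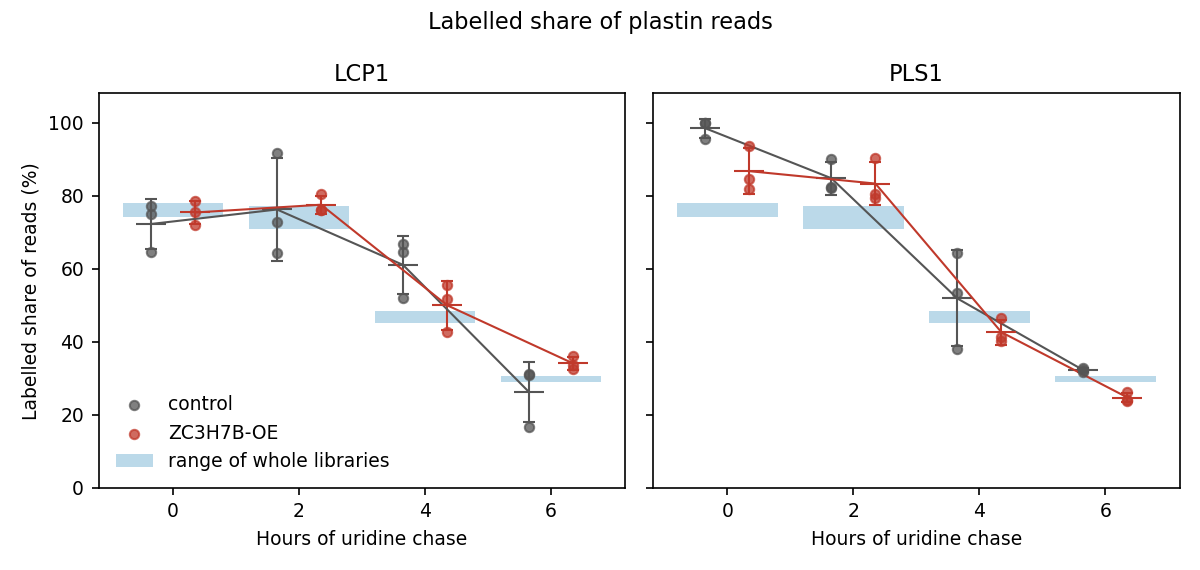
Labelled share of LCP1 and PLS1 reads (%) against hours of chase; points are libraries, ticks with bars are means ± SD (n = 3), and blue bands give the range over whole libraries of both lines. LCP1 shares scatter around the bands, widely in control (16.7% to 31.3% at 6 h), while PLS1 starts above them at 81.8% to 100% and ends on either side, at 31.6% to 32.8% in control and 23.8% to 26.3% in ZC3H7B-OE.

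The other actin-bundling and crosslinking genes showed how common such differences are. Of 50 genes in the list, 32 were tested; leaving out LCP1 and PLS1, 4 of 30 were higher in ZC3H7B-OE and 6 were lower, with a median of 0.11 against 0.0072 over all entries, where 20.4% were called higher and 25.4% lower. Those higher were FLNA, the crosslinker filamin A (0.54), DST, the cytoskeletal linker dystonin (0.36), MARCKSL1, a membrane-bound actin organizer (0.31), and ACTN4, an alpha-actinin (0.21). Lower were ANLN, the anillin of the cytokinetic ring (-0.97), CNN3, a calponin (-0.68), EPS8, a capping and bundling protein of microvilli and filopodia (-0.63), and CORO1C, a coronin (-0.45), with TAGLN2 (-0.35) and ABLIM1 (-0.25). The ACTN4 call was lost without ZC3H7B-OE 2 h replicate 2 (0.17, adjusted p = 0.0527 by edgeR). The list and its members were chosen with earlier results known, and no member other than LCP1 differed by more than 1 log2 unit in either direction.

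**Figure D4:**
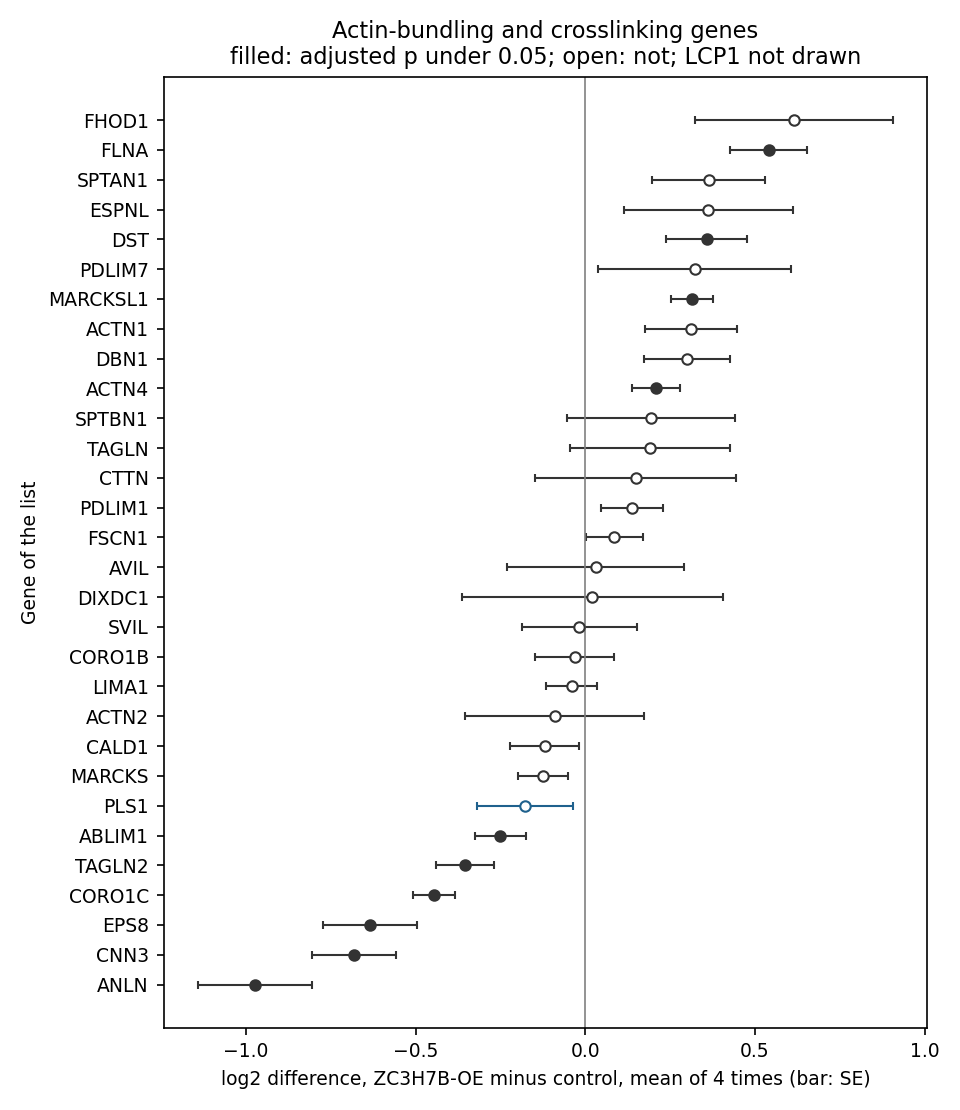
Log2 difference between ZC3H7B-OE and control (mean of the 4 times, horizontal axis) for 30 of the 32 tested actin-bundling and crosslinking genes; bars are SE, filled points have an adjusted p under 0.05, and PLS1 is blue. LCP1, at 4.37, lies off this scale and is not drawn; the genes drawn lie between -0.97 for ANLN and 0.61 for FHOD1.

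Along the chase more members of the bundling list fell than rose, and many were called in neither direction. Without the plastins, 3 of 30 members rose and 13 fell from 0 to 6 h in control, and 4 rose and 13 fell in ZC3H7B-OE, with medians of -0.41 and -0.40 against -0.05 and -0.08 over all entries. Over all entries 30.7% rose and 29.9% fell in control, and 32.8% rose and 30.6% fell in ZC3H7B-OE. ACTN2, a sarcomeric alpha-actinin, rose by 2.35 in control and 3.48 in ZC3H7B-OE on the log2 scale. ANLN rose by 2.23 and 3.17 and EPS8 by 1.54 and 2.58. TAGLN2, a transgelin, fell by 1.60 and 1.26, and FSCN1, the filopodial bundler fascin, fell by 1.43 and 1.35. PDLIM7 (-2.34) and DIXDC1 (-1.87) led the falls in control, and DBN1 (-1.41) was among the largest in ZC3H7B-OE; the DIXDC1 call was lost without a filter on low counts and with any of 4 control libraries left out (0 h replicate 1 or 2, 6 h replicate 1 or 2). PLS1 therefore belonged to the minority of this list that rose in both lines.

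Among actins and filament assembly genes, 35 of 49 were tested. By line, 5 were higher and 12 lower in ZC3H7B-OE, with a median of -0.18, where 20.4% of all entries were called higher and 25.4% lower. The lower members were led by CFL2, a cofilin that severs filaments (-1.53), WASF3, an activator of the Arp2/3 complex (-1.35), ACTR3, a subunit of that complex (-1.14), and CAPZA1, a barbed-end capper (-0.94). Higher were ACTA1, skeletal actin (0.65), ACTB, cytoplasmic beta-actin (0.30), PFN1, profilin (0.27), and CFL1 (0.25); the ACTA1 call was lost without a filter on low counts (adjusted p = 0.0680 by edgeR) and with any of 12 libraries left out. From 0 to 6 h, 6 rose and 15 fell in control and 12 rose and 12 fell in ZC3H7B-OE, against 30.7% and 29.9% of all entries in control and 32.8% and 30.6% in ZC3H7B-OE. DIAPH3, a formin that elongates filaments, rose by 3.31 and 4.98, WASL, the N-WASP nucleation promoter, by 2.95 and 3.74, and SSH2, a cofilin phosphatase, by 1.95 and 2.03. The falls in control were led by ACTR2, an Arp2/3 subunit (-2.82), LIMK1, a cofilin kinase (-2.52), and TMSB10, a monomer-binding thymosin (-2.19), and those in ZC3H7B-OE by ACTG1, cytoplasmic gamma-actin (-1.52), ARPC3, another Arp2/3 subunit (-1.32), and CAPZB, a barbed-end capper (-1.14). With control 0 h replicate 2 left out, ACTR2 no longer passed (-2.14, adjusted p = 0.0958 by edgeR). ACTR2 and LIMK1 were low in control, at 2.37 ± 2.13 and 4.20 ± 3.06 CPM (SD, n = 12). The TMSB10 value in control ran from -2.51 to -1.16 with each library left out in turn.

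LCP1 is best known from leukocytes, so genes of that lineage were read in the same libraries. Of 40 such genes, LCP1 left out, 32 had a read and 6 passed the filter, and 0 of the 6 were called in either direction by edgeR between the lines, in the contrast that called 45.8% of all entries. The 6 tested were FCER1G (0.28), PTPN6 (-0.39), CD68 (0.20), CD79A (0.92), CD74 (0.50) and CYBB (-0.69), with adjusted p from 0.0714 to 0.394; 1 of them had an unadjusted p under 0.05, and DESeq2 called 0 as well. Without a filter on low counts 2 members were called higher and 1 lower, and 2 were higher when control 0 h replicate 1 was left out, or 1 when control 0 h replicate 3, control 4 h replicate 2 or control 6 h replicate 2 was. The defining genes PTPRC, which encodes CD45, and CD3E were at 0 in all 24 libraries, as were CD3D, CD79B, ITGAL, DOCK2, IKZF1 and NCF4. Summed over the list, levels ran from 58.5 to 301 CPM in control libraries and from 88.0 to 162 in ZC3H7B-OE, so the lines overlapped where LCP1 did not. The sum leans on CD68, at 80.4 ± 63.7 CPM (SD, n = 12) in control and 85.2 ± 30.6 in ZC3H7B-OE. CD74, the next highest of the 6, stood at 11.2 ± 7.99 and 14.9 ± 6.04.

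PLS1 is a microvillus protein, and 11 of 23 microvillus and brush border genes were tested. Between lines, SLC9A3R1, a scaffold that ties membrane proteins to ezrin (0.31), and MSN, the membrane linker moesin (0.27), were higher in ZC3H7B-OE, and EPS8 (-0.63) and MYO1D, a class I myosin (-0.30), were lower, where 20.4% of all entries were called higher and 25.4% lower. The SLC9A3R1 call was lost without a filter on low counts (adjusted p = 0.0579 by edgeR) and with any of 16 libraries left out. From 0 to 6 h, 4 rose and 4 fell in control (30.7% and 29.9% of all entries), and 4 rose and 5 fell in ZC3H7B-OE (32.8% and 30.6%). EPS8, MYO1E (1.40 and 0.83), EZR, the ezrin gene (0.72 and 0.43), and BAIAP2L1 (0.46 and 0.60) rose in both lines, while SLC9A3R2 (-1.29 and -1.60) and MSN (-0.95 and -0.94) fell in both. The MYO1E call in ZC3H7B-OE was lost without ZC3H7B-OE 0 h replicate 2 (0.70, adjusted p = 0.0997 by edgeR). It was also lost without ZC3H7B-OE 6 h replicate 3 (0.68, adjusted p = 0.0935 by edgeR). Without ZC3H7B-OE 0 h replicate 2 only 2 members were called rising in that line. MYO7B, ANKS4B, CDH17 and TMIGD1, genes of the intestinal brush border, were at 0.

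Genes beside LCP1 on chromosome 13 did not share its difference between lines. Of its 10 nearest entries in RefSeq order, 5 to a side, 9 had a read and 3 were tested. ZC3H13, a zinc finger cofactor of m6A methylation, differed by 0.17 (adjusted p = 0.119), LRCH1 by 0.30 (adjusted p = 0.607) and ESD, the esterase D gene, by -0.62 (adjusted p = 0.0616), all by edgeR. ESD passed the threshold with DESeq2 (-0.64, adjusted p = 0.0393), without a filter on low counts and with a replicate block, each time lower in ZC3H7B-OE. CPB2 and LRRC63, the entries directly beside LCP1, drew 13 and 4 reads in all 24 libraries against 6449 for LCP1.

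The entries whose levels followed the plastins most closely were sought by Pearson's r of log2 CPM over the 24 libraries, among the 7617 entries whose log2 CPM averaged 3 or more. For LCP1 they included DDA1 (r = 0.932), BCL7A (0.916), HOXB7 (0.914) and POFUT2 (0.909), which are higher in ZC3H7B-OE by 0.71 to 0.99 on the log2 scale. For PLS1 they were C4orf46 (0.964), CCNA2 (0.962), SNX4 (0.960), GABPB1 (0.958) and LIN9 (0.957), whose log2 differences from 0 to 6 h were 1.52 to 2.62 in control and 2.29 to 3.74 in ZC3H7B-OE. The r values are descriptions: the points share 2 lines, 4 times and a depth that moves with time. PLS1 thus sorted with entries that rise along the chase. LCP1 sorted with entries that differ by line, though by far less. That was fixed in advance, because LCP1 was chosen on its difference between lines.

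PLS1 and LCP1 also differ in base composition, which was looked at after the chase differences had been seen. Of 18131 genes with a model, those with a very short 3' UTR were not scored for T. The 3' UTR of PLS1 is 39.4% T, higher than in 97.6% of the scored genes. That of PLS3 is 36.8% T and that of LCP1 28.9%, near the median of 29.6%. Across 9272 tested entries, the log2 difference from 0 to 6 h rose with 3' UTR T content (Pearson's r 0.437 in control and 0.553 in ZC3H7B-OE; Spearman's rho 0.450 and 0.579). These are correlations across genes, which are not independent replicates. In the 10% of entries with the most T, which include PLS1, the median difference was 1.14 in control and 1.68 in ZC3H7B-OE, and 64.3% and 80.2% of these entries lay below PLS1. In the 10% around LCP1 the medians were -0.04 and -0.16. PLS1 thus rose along with entries of like composition, at the upper side of their range in ZC3H7B-OE, and the part of T content in its rise was not tested. By codons, the last base of a codon is G or C in 52.6% of LCP1 codons, 41.3% of PLS1 codons and 41.4% of PLS3 codons, against a median of 60.7%.

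**Figure D5:**
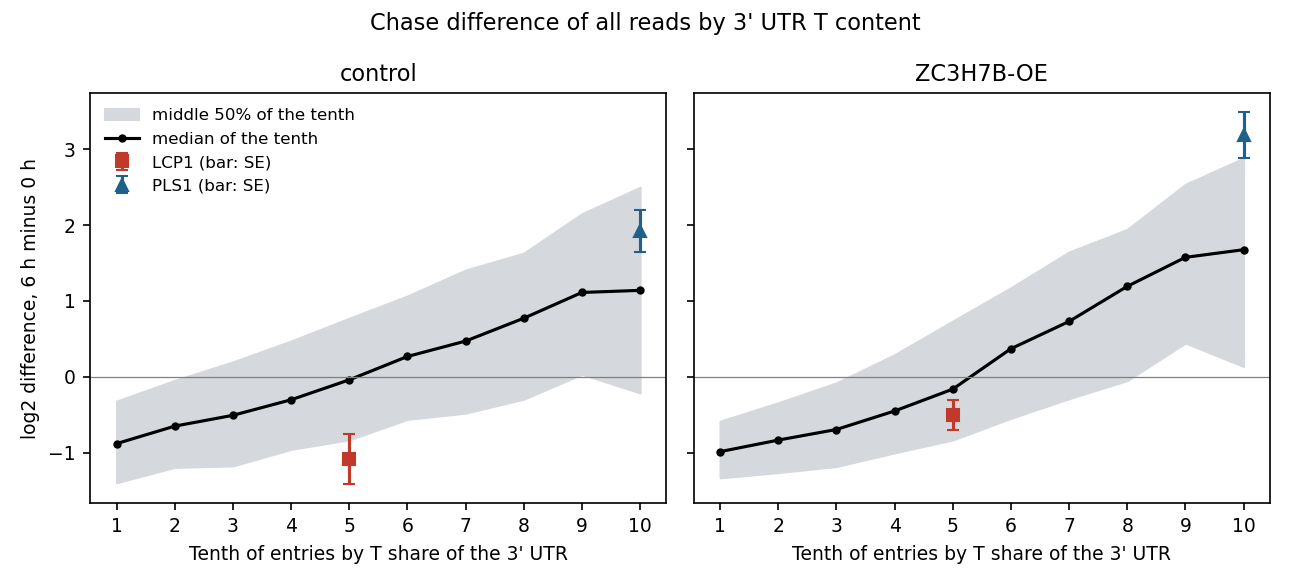
Log2 difference of all reads from 0 to 6 h (vertical axis) for 10 equal bins of entries in the order of the T share of the 3' UTR, in control and in ZC3H7B-OE; the line is the median, the band the middle 50% of each bin, and squares and triangles with SE bars are LCP1 and PLS1. The medians climb with T share, between -0.88 and 1.14 in control and between -0.99 and 1.68 in ZC3H7B-OE; PLS1 lies inside the band in control and above it in ZC3H7B-OE, and LCP1 lies below the band in control and inside it in ZC3H7B-OE.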

How the data were processed

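Poly(A) RNA from 24 libraries was read from the 2 deposited tables of the whole series, which hold the authors' raw read counts per gene, for all reads and for reads with T>C conversions. The submitters' processing notes name fastp and the build GRCh37; aligner, conversion caller, counted region and use of strand: not given in the sources used here. Groups are line and chase time from the labels, which call the libraries replicates but name no separate cultures; a p-value therefore measures the spread of these libraries, which may be technical. Counts were fitted with edgeR 4.0.16 in R 4.3.3 (TMM scaling, filterByExpr with a minimum count of 10, robust quasi-likelihood, Benjamini-Hochberg adjustment over all entries, threshold 0.05), with 8 group means over all 24 libraries; 10038 entries were tested. Labelled counts took library sizes and TMM factors from all reads. Labelled and unlabelled counts were fitted side by side with a term per library. Unlabelled reads are all reads minus labelled reads. CPM are scaled by TMM. Shares were compared by exact permutation tests with scipy 1.17.1. The scripts were tested on simulated counts. Alternatives were DESeq2 1.42.0, its size factors, no filter, a replicate block, fits of 1 time or line, and each library left out. Intervals are exact at 95% and, with the floor of 3 counts, cover counting error only; the labels name no molecular identifiers. The members and gene lists were chosen with earlier results of these data known. Named genes are the plastins, ZC3H7B, up to 4 called members a list in each direction by line and 3 by chase with the largest differences, the tested neighbours of LCP1, and the 5 entries most correlated with each plastin; other names are extremes of a list, and 2 genes that this rule would name are not reported here. Gene models are GENCODE v29; promoter windows are RefSeq's, matched for 3 of 3 genes.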

Additional observations from a re-analysis of the deposited data

How the results depend on the processing

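Shared replicate numbers did not pair the libraries: over 12 same-numbered pairs of a control and a ZC3H7B-OE library of 1 time, correlations of deviations from group means ran from -0.117 to 0.214, 1 exceeded 0.1, and 3 correlated best with their own number. With a replicate block PLS1 at 0 h was -1.15 (adjusted p = 0.0127 by edgeR) and no call on a plastin changed. Fitted alone, the 0 h libraries gave -1.16 for PLS1, and the ZC3H7B-OE libraries gave LCP1 at 2 h and 4 h against 0 h as -0.35 and -0.40, past the threshold. DESeq2 size factors gave LCP1 at 6 h against 0 h in ZC3H7B-OE as -0.46. The PLS1 interaction of line and chase passed with DESeq2 (1.34; F test adjusted p = 0.0416) and without a filter (1.31; 0.0250). Labelled reads' own scaling gave slopes of -0.0787 (LCP1, control), -0.0441 (LCP1, ZC3H7B-OE) and 0.30 (PLS1, control). From 2 h to 6 h the PLS1 slope in ZC3H7B-OE was -0.0773 and its line difference -0.0832.

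Entries called between lines were 791 (0 h), 3104 (4 h) and 3286 (6 h) with a time fitted alone, against 3136, 1776 and 1583. For the interaction of 6 h and 0 h they were 603 with DESeq2 and 651 without a filter, against 253, and for the F test 801 and 942, against 174. Labelled reads' own scaling called 3126 slopes in control and 2501 in ZC3H7B-OE, against 6586 and 6353, and 2 slope differences; from 2 h to 6 h 63 differed. The causes were not tested.

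Leaving out each library in turn gave, for LCP1, 3.903 to 4.93 for the line difference at 0 h, -0.75 to 0.27, -0.53 to 0.50 and -1.45 to -0.43 for 2, 4 and 6 h against 0 h in control, and -0.40 to -0.32, -0.44 to -0.34 and -0.60 to -0.42 in ZC3H7B-OE. The LCP1 interaction ran from -0.075 to 0.95, its slope difference from -0.0189 to 0.11 and the interaction of its label odds from -0.16 to 0.54. For PLS1 the line difference ran from -1.47 to -0.69 at 0 h and from -0.10 to 0.38 at 2 h, 2 h against 0 h in control from 0.11 to 0.89, the interaction from 0.79 to 1.56, the F test's adjusted p from 0.0373 to 0.433, and the slope in ZC3H7B-OE from 0.11 to 0.20. The label odds of PLS1 between lines ran from -1.87 to -1.09 over all times and from -0.56 to 0.0915 at 2 h, and its share difference from -9.21 to -5.94 points. LRCH1 ran from -0.10 to 0.47. Entries called ran from 575 to 1670 at 2 h, 1035 to 2839 at 4 h, 891 to 2669 at 6 h, 94 to 628 for the interaction, 48 to 709 for the F test and 0 to 1 for slope differences. DESeq2 gave no adjusted p for the label odds of PLS1 at 0, 2 and 4 h or their interaction. Depth limits LCP1 in control (12 to 48 reads a library) and PLS3 (at most 6).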

Other observations

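The neighbours of PLS1 and PLS3 were read as those of LCP1 were. Of the 10 entries nearest to PLS1 on chromosome 3, 5 were tested and 1 was called between lines: U2SURP, a splicing-associated gene, lower in ZC3H7B-OE by -0.62 on the log2 scale (SE 0.20, adjusted p = 0.0108 by edgeR). XRN1, which encodes the cytoplasmic 5' to 3' exonuclease and lies in the second place before PLS1 in that order, was higher at 6 h than at 0 h by 3.37 in control and 3.20 in ZC3H7B-OE, and differed between lines by 0.04 (adjusted p = 0.882 by edgeR). ATR, the checkpoint kinase gene directly beside PLS1, was higher at 6 h by 1.27 in control (adjusted p = 0.0127 by edgeR) and by 0.67 in ZC3H7B-OE (adjusted p = 0.156). TFDP2 differed by -0.09 and 0.23 along the chase, with adjusted p of 0.651 and 0.210.

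Of the entries nearest to PLS3 on the X chromosome, 3 were tested and 2 were lower in ZC3H7B-OE: LRCH2, by -1.11 (SE 0.19, adjusted p = 1.2e-05 by edgeR), and KLHL13, an adaptor of a ubiquitin ligase, by -0.46, a call lost without control 2 h replicate 1 (adjusted p = 0.0505). LRCH2 stood at 16.3 ± 6.59 CPM (SD, n = 12) in control and 8.29 ± 5.35 in ZC3H7B-OE, in libraries where PLS3 was mostly at 0. ZC3H13, near LCP1, was higher at 6 h than at 0 h by 3.32 in control and 3.31 in ZC3H7B-OE, a course that LCP1 did not show.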
